A study of Mus musculus with 20 samples.

Results

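The PIM kinases are the serine/threonine protein kinases encoded by Pim1, Pim2 and Pim3, described here in RNA sequencing of whole mouse adrenal glands. They were taken by gene symbol, 3 of the 47729 genes in the deposited table, and all 3 were among the 26612 genes tested. The family was chosen by its genes' differences between Bmal1 KO and control libraries, with those results in view. For its members the genotype differences are therefore a description with no test. The study asked what inactivation of the clock gene Bmal1 does in female and in male adrenals. Its groups were 5 control females (genotype SCC::Cre_CTRL, 1.5 to 3.4 months old), 5 Bmal1 KO females (SCC::Cre_BMAL1 KO, 2.4 to 3.4 months), 6 control males (2.9 to 4.7 months) and 4 Bmal1 KO males (2.9 to 3.7 months). Every group, controls included, carries the label SCC::Cre. The labels do not spell out SCC, the exons removed, the strain or the time of day of collection. The adrenal has a cortex that makes steroids and, inside it, a medulla that makes catecholamines, and whole glands hold both.

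Pim1 was first found as a gene activated by insertion of a leukaemia virus. PIM kinases have no regulatory domain that must be switched on, so the kinase is active once it is made. Both the messenger RNAs and the proteins are short-lived, and the amount of kinase is set largely by transcription, typically through cytokine and hormone receptors, JAK kinases and STAT factors. Their substrates overlap with those of AKT and include the cell death protein BAD and the cell cycle inhibitors p21 and p27.

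Recovered reads ran from 13421985 to 26742820 per library, and values are read counts divided by 1 size factor per library, called normalised reads below. The first principal component separated the sexes and the second the genotypes. On the second, 2 libraries stood apart from their groups: control female 1 at 10.4, where the other control females lay between -46.4 and -25.9 and the lowest Bmal1 KO library at 12.4, and control male 4, the library with the fewest reads, at -42.2, where the other control males lay between -20.4 and -6.33. The Bmal1 gene itself, listed under its symbol Arntl, read 494 to 860 in control females, 833 to 1010 in Bmal1 KO females, 365 to 1092 in control males and 841 to 995 in Bmal1 KO males. A sum over the whole gene checks nothing about a deleted part, so which libraries are Bmal1 KO is known from their labels. Cry1, a clock repressor, read 122 to 237 in all controls and 1140 to 2137 in all Bmal1 KO libraries. Nothing in the labels says that libraries of equal age came from separate animals, so a p-value here reflects the spread among these libraries, part of which may be technical.

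The bases just before the start of each gene are shown because transcription largely sets the amount of PIM kinase and because the level of Pim3 set one group apart while groups overlapped for Pim1 and Pim2. All 3 members matched by symbol to 4 RefSeq start windows on GRCm38.p6, each holding 250 bases before a start, and each stretch printed stops before the first annotated transcript start. All are on the plus strand, 5′ to 3′. Capitals mark the GC box GGGCGG, the CCAAT box CCAAT, the E-box CACGTG bound by CLOCK and BMAL1, and the nuclear receptor element AGGTCA, each read on either strand. The stretches are chr17:29490535-29490752 for Pim1, chr17:29492977-29493036 for a second RefSeq start that lies within an intron of the longest Pim1 transcript, chrX:7878056-7878261 for Pim2 and chr15:88861944-88862185 for Pim3.
Pim1: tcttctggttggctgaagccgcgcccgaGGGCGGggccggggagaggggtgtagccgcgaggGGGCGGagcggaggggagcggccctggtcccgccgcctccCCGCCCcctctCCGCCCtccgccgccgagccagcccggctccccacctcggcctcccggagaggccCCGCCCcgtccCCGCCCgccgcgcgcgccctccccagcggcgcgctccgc
Pim1, second start: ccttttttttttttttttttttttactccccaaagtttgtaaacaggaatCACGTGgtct
Pim2: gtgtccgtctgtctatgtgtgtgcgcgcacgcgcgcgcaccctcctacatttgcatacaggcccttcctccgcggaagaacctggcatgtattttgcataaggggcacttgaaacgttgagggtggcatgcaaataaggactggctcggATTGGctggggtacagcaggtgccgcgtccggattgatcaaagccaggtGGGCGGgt
Pim3: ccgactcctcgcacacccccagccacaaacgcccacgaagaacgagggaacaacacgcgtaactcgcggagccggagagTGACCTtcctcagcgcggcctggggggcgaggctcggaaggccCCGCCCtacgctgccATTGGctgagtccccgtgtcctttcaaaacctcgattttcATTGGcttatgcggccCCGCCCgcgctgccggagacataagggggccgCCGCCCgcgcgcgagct
The window at the first Pim1 start held 82.4% G and C and 7 GC boxes, of which 6 lie in the stretch printed. That of Pim3 held 68%, 3 GC boxes, 2 CCAAT boxes and 1 AGGTCA. That of Pim2 held 62%, with 1 GC box and 1 CCAAT box. The only CACGTG stood at the second Pim1 start, whose window held 48% G and C. Of 32851 windows of the same length over all genes, 32.7% held a GC box, 33.8% a CCAAT box, 14% an AGGTCA and 6.02% a CACGTG. The windows were also searched on both strands for the E-prime box CACGTT (in 3.85% of all windows), the STAT site TTCNNNGAA (7.02%), the D-box TTATGTAA (0.819%) and the cAMP element TGACGTCA (1.55%). No match to these 4 was found in any of the 4 windows, which says only that these letters are not there. No motif searched contains another, and a match is a description of letters, not of a bound site.

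Pim3 was the member whose level separated one group from the rest. Pim3 lies on chr15:88862186-88865726, plus strand (ENSMUSG00000035828, GRCm38). The 6 control males read from 3164 to 4772 normalised reads with a median of 3898. The 4 Bmal1 KO males read 1991, 1972, 1881 and 1641. Among females, the 5 controls had 2314, 2000, 1405, 1906 and 2120 and the 5 with Bmal1 KO had 1862, 2091, 1777, 2086 and 1706. Every control male was above every other library, and the other 3 groups overlapped.

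The male means were 3877 ± 639 (SD, n = 6) for controls and 1871 ± 161 (n = 4) for Bmal1 KO. The female means were 1949 ± 340 (n = 5) for controls and 1904 ± 177 (n = 5) for Bmal1 KO. Pim3 was thus 2.05-fold lower in Bmal1 KO than in control males, with a log2 difference of -1.04 ± 0.13 (SE), while in females the log2 difference was -0.02 ± 0.12 and ran from -0.13 without control female 3 to 0.05 without control female 1. The female minus male value of these 2 differences was 1.02 ± 0.18. These 3 differences belong to the contrasts with which the family was chosen and are given without a test. In an adrenal extract, fewer cells of a type and less RNA per cell cannot be told apart. Age moved with group to some extent, since the oldest control males were older than any Bmal1 KO male. With the control males no older than the oldest Bmal1 KO male, the male log2 difference was -1.03 ± 0.15, and with age as a covariate it was -1.04 ± 0.13. Without control male 4 it was -1.002 ± 0.131.

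**Figure D1:**
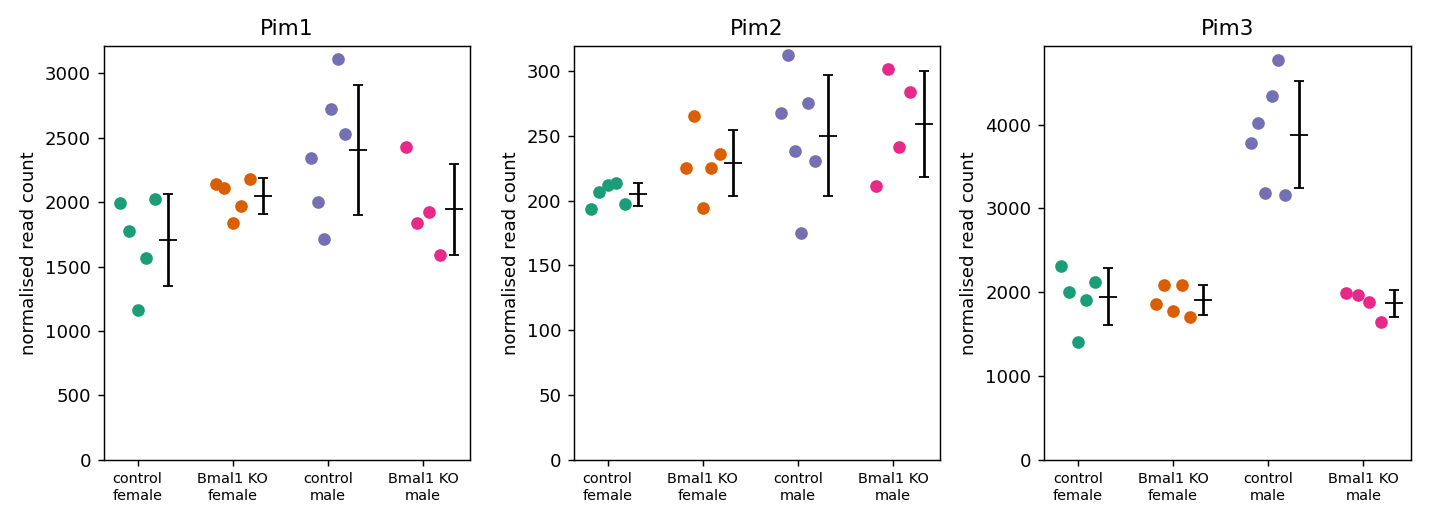
Normalised reads of Pim1, Pim2 and Pim3 (y axis, from 0) in each of the 20 libraries by group (x axis), 1 panel per gene. Points are libraries, with a black dash for the mean and a bar for the SD. For Pim3 the 6 control males, at 3164 to 4772, sit above all other libraries, which reach at most 2314, while for Pim1 and Pim2 all 4 groups overlap.

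**Figure D2:**
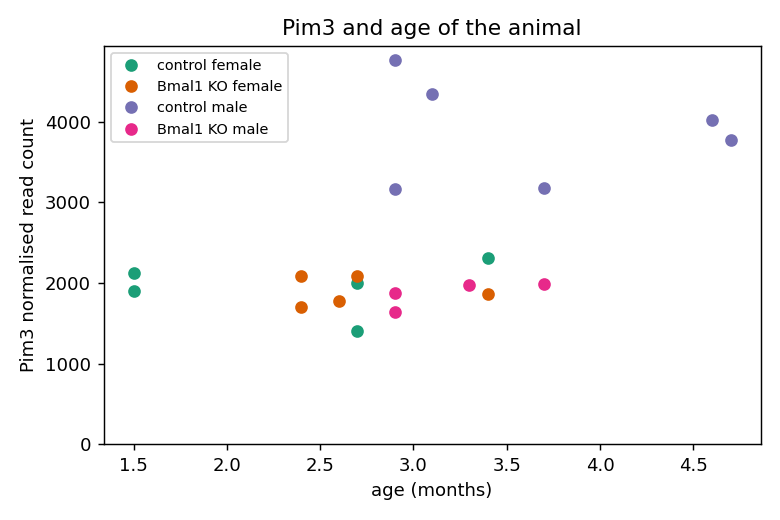
Normalised reads of Pim3 (y axis) against the age label in months (x axis), 1 point per library, coloured by group. Control males sit above the other groups across their age range of 2.9 to 4.7 months, including at ages shared with Bmal1 KO males (2.9 to 3.7 months).

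Pim1, the founding member and a classical STAT target, lies on chr17:29490753-29496112, plus strand (ENSMUSG00000024014). In females, Pim1 stood at 1997, 1780, 1160, 1564 and 2024 in the 5 controls, and at 2141, 2109, 1837, 1974 and 2179 in the 5 Bmal1 KO libraries. In males, the 6 controls ran from 1717 to 3116 with a median of 2440, and the 4 Bmal1 KO males read 2430, 1839, 1921 and 1589. All 4 groups overlapped, although 3 control males, at 2534, 2721 and 3116, were above every other library. Means were 1705 ± 357 (SD, n = 5), 2048 ± 141 (n = 5), 2406 ± 502 (n = 6) and 1945 ± 353 (n = 4) in the order control females, Bmal1 KO females, control males, Bmal1 KO males. Bmal1 KO minus control, the log2 difference of Pim1 was 0.29 ± 0.15 (SE) for females and -0.30 ± 0.16 for males, opposite in sign and each less than 2 times its SE. Their difference, female minus male, was 0.59 ± 0.22, again with no test. Leaving out control female 3, the lowest library, moved the female value to 0.16.

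An antisense gene, Gm26885, overlaps Pim1 on the opposite strand. Whether counting used strand is not given in the sources used here, so reads of the pair cannot be told apart where they overlap. Gm26885 read 17.1 to 32.4 in females and 43.4 to 70.1 in males, far below Pim1 in each group. Its female minus male log2 difference in controls was -1.47 ± 0.18 (limma adjusted p = 4.41e-06), and its genotype differences were 0.37 ± 0.19 in females and 0.01 ± 0.20 in males.

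Pim2, which like Pim1 is best known from lymphoid cells, lies on chrX:7878262-7883432, plus strand (ENSMUSG00000031155). In females, Pim2 stood at 193, 207, 212, 214 and 198 in the 5 controls, and at 225, 265, 194, 226 and 236 in the 5 Bmal1 KO libraries. In males, the 6 controls ran from 175 to 313 with a median of 253, and the 4 Bmal1 KO males read 211, 301, 241 and 284. All groups overlapped, and control males held both the lowest and the highest library. Group means were 205 ± 9.01 (SD, n = 5), 229 ± 25.5 (n = 5), 250 ± 46.8 (n = 6) and 259 ± 40.9 (n = 4) in the same order. Between genotypes, Pim2 had a log2 difference of 0.16 ± 0.13 (SE) for females and 0.06 ± 0.13 for males, and their difference was 0.10 ± 0.19, each within 2 times its SE. Without control male 4 the male value was -0.04, and without Bmal1 KO female 2 the female value was 0.10.

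Per length, Pim3 had the highest level and Pim2 the lowest. Divided by the union of annotated exons (3362 bases for Pim1, 2795 for Pim2 and 2427 for Pim3), control males had 1597 ± 263 (SD, n = 6) normalised reads per kilobase of Pim3, 716 ± 149 of Pim1 and 89.5 ± 16.7 of Pim2. In control females these levels per kilobase were 803 ± 140 (n = 5), 507 ± 106 and 73.3 ± 3.22. In Bmal1 KO females they were 785 ± 73 (n = 5), 609 ± 41.9 and 82.1 ± 9.11, and in Bmal1 KO males 771 ± 66.4 (n = 4), 579 ± 105 and 92.8 ± 14.6. The order Pim3, Pim1, Pim2 was the same in the means of all 4 groups.

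The ratio of Pim3 to Pim1 within a library does not depend on how libraries were scaled. In normalised reads it was 1.64 ± 0.26 (SD, n = 6) for control males, from 1.25 to 2.01, against 0.976 ± 0.11 (n = 4) for Bmal1 KO males, from 0.819 to 1.07. For control females it was 1.15 ± 0.07 (n = 5), from 1.05 to 1.22, and in Bmal1 KO females 0.934 ± 0.11 (n = 5), from 0.783 to 1.06. Every control male had a higher ratio than every other library, and in females the genotypes overlapped only through control female 5 and Bmal1 KO female 4. In females the lower ratio of Bmal1 KO came with a higher mean of Pim1 and a like mean of Pim3, and in males with lower means of both. This ratio uses the same contrasts as the choice of the family and has no test.

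Sex differences were tested, in controls and in Bmal1 KO separately. These comparisons use the same control and Bmal1 KO libraries as the genotype differences, so for Pim3 the high control males enter both, and neither supports the other. The choice of the family drew on those same values, so the members' p-values for sex are not free of that choice. In controls, Pim3 was 1.99-fold higher in males, a female minus male log2 difference of -0.99 ± 0.12 (SE, limma adjusted p = 2.28e-06), with no overlap between 6 males and 5 females. Pim1 was lower in control females by a log2 difference of -0.50 ± 0.15 (limma adjusted p = 0.0162), with overlapping libraries. The call for Pim1 was lost without control female 3, its lowest library (-0.37, limma adjusted p = 0.0588). Pim2 had a log2 difference of -0.27 ± 0.13 that missed the threshold (limma adjusted p = 0.133), but passed without control male 4, its lowest library (-0.36, limma adjusted p = 0.0209). Without control female 1 the log2 difference was -1.06 for Pim3, -0.56 for Pim1 and -0.25 for Pim2, and without control male 4 it was -0.96 for Pim3 and -0.46 for Pim1, with the calls of Pim3 and Pim1 kept in both fits. With age as a covariate, Pim3 stayed at -0.99 (limma adjusted p = 0.000162) and Pim1 at -0.58 (0.0463). Of the control females only female 1, at 3.4 months, lay within the age range of control males, 2.9 to 4.7 months. Age and sex thus largely ran together in controls, and a covariate cannot fully separate them, here or in the age fits of other genes below. Sex separated many genes in these adrenals, with 26.4% of all genes tested called in controls, so calls for 2 of 3 members are read against that share.

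In Bmal1 KO no member passed the test between the sexes, and each difference was under 2 times its SE. The female minus male log2 difference was 0.02 ± 0.13 (SE, limma adjusted p = 0.922) for Pim3, 0.09 ± 0.16 (0.750) for Pim1 and -0.17 ± 0.14 (0.422) for Pim2. In this comparison 22.8% of all genes tested were called. The test missing its threshold does not show that the sexes are alike, and for Pim3 leaving out single libraries moved the difference between -0.04 and 0.06.

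**Figure D3:**
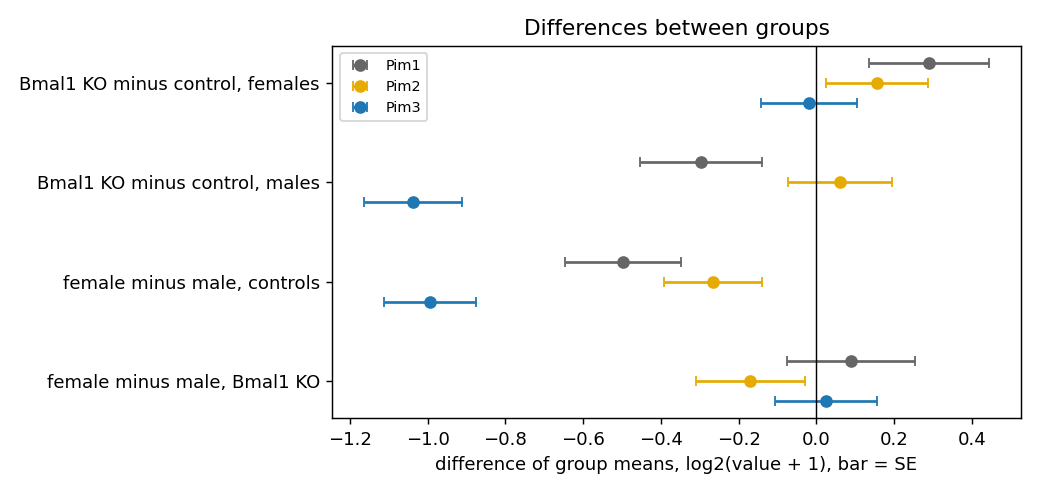
Log2 differences of normalised reads (x axis, log2 of value + 1) for Pim1, Pim2 and Pim3 in the 2 genotype comparisons and the 2 sex comparisons, with bars for the SE. Pim3 lies near -1.04 for genotype in males and near -0.99 for sex in controls, comparisons that share the control males, and near 0 in the other comparisons.

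Markers of the tissue and of other cells were read beside these values, and their part in them was not tested. The 7 cortex markers summed to between 718900 and 1510000 normalised reads per library and the 6 medulla markers to between 87400 and 205500, so RNA of both cortex and medulla was present. Summed cortex markers were 849400 to 1296000 in control males and 718900 to 1033000 in Bmal1 KO males, with 2 of 7 called lower there: Cyp11a1, the first enzyme of steroid synthesis (log2 difference -0.71 ± 0.16, limma adjusted p = 0.0321), and Star, which brings cholesterol into mitochondria (-0.69 ± 0.15, 0.0238). Limma called 1.33% of all genes by genotype in males. In females, where it called 1.75%, 0 of the 7 were called, with Star at -0.53 ± 0.15 (limma adjusted p = 0.0815) and Cyp11a1 at -0.19 ± 0.16 (0.727). In the sex comparison of controls, 5 of 7 cortex markers were called higher in females and 1 lower, where 26.4% of all genes were called. The 10 lymphocyte markers summed to 485 to 775 in control males and 445 to 958 in Bmal1 KO males, and to 424 to 1467 in control females and 650 to 1037 in Bmal1 KO females, so the groups overlapped. The 8 neutrophil and mast cell markers summed to 83 to 184 in males of both genotypes and to 196 to 494 in females, against the direction of Pim3 and Pim1 in controls. The 7 macrophage markers summed to 4553 to 13060 over all groups and the 6 adipocyte markers to 1899 to 10110, overlapping between groups. By genotype limma called 1 macrophage marker in females, Mrc1, lower in Bmal1 KO (-0.59 ± 0.11, limma adjusted p = 0.0046), and 0 in males. The 5 red blood cell markers summed to 6138 to 20770, with 0 called by genotype and 3 in females at an unadjusted p under 0.05. The 7 endothelial markers summed to 15040 to 17730 in control males and 17180 to 19620 in Bmal1 KO males, and to 14490 to 15780 and 15330 to 18970 in control and Bmal1 KO females. Control and Bmal1 KO ranges overlapped in each sex, and limma called 0 of the 7 by genotype, with 2 in males and 3 in females at an unadjusted p under 0.05, 0 by edgeR, and 0 in males and 1 in females by DESeq2. Of all genes, limma called 1.33% in males and 1.75% in females, with 10.9% and 11.7% at an unadjusted p under 0.05. The 6 kidney markers summed to 8.24 to 26.3, with Umod and Slc34a1 at 0 in every library.

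The receptors, JAK kinases and STAT factors that lie upstream of PIM transcription held no limma call by genotype. Of 26 such genes tested, limma called 0 in either sex, where it called 1.75% of all genes in females and 1.33% in males. At an unadjusted p under 0.05 there were 7 of 26 in each sex, where 11.7% of all genes in females and 10.9% in males were under it. Of the 26, edgeR called 0 and 0, and DESeq2 called 1 and 2. The median log2 difference was -0.01 in females and 0.15 in males, against 0 and 3e-04 over all genes. Jak2, a kinase of many cytokine receptors, differed by -0.08 ± 0.07 (SE) in females and 0.03 ± 0.07 in males. Stat3, the factor activated by interleukin-6 type signals, had log2 differences of -0.08 and 0.01, and Stat5a 0.09 and 0.18. Stat5b, which carries growth hormone and prolactin signals, had log2 differences of 0.08 and 0.11. None of these 4 passed the test for genotype.

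Between the sexes 7 of these 26 genes were higher in control females and 3 lower, where 26.4% of all genes were called, and 7 in all were called with age as a covariate. Stat5b was higher in females, at 2417 ± 209 (SD, n = 5) normalised reads against 1682 ± 109 (n = 6) in control males, a log2 difference of 0.52 ± 0.08 (SE, limma adjusted p = 2.4e-05), and in Bmal1 KO the log2 difference was 0.49 (0.000178). That is the opposite direction to Pim3 and Pim1 in controls, and any link between them was not tested. Jak2 was higher in control females by a log2 difference of 0.25 ± 0.07 (limma adjusted p = 0.0116), a call lost with age as a covariate (0.200). In Bmal1 KO 4 of 26 were higher in females and 4 lower, where 22.8% of all genes were called.

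Of 15 genes besides the PIM genes that STATs induce, limma called 0 by genotype in females and 1 in males, where it called 1.75% and 1.33% of all genes. Some genes stand on several of the lists read here, such as Il4ra on this list and the previous, so their calls are counted on each. In females 2 of 15 were at an unadjusted p under 0.05, where 11.7% of all genes were under it. There edgeR called 1 and DESeq2 called 2. In males Socs2, a feedback inhibitor of growth hormone signalling, was the 1 gene called, with 310 ± 86.5 (SD, n = 6) normalised reads among controls against 693 ± 265 (n = 4) among Bmal1 KO males, a log2 difference of 1.14 ± 0.27 (SE, limma adjusted p = 0.0351). That call was lost without any 1 of control males 2 and 4 and Bmal1 KO males 1, 2 and 3 (0.059 to 0.14), and with age as a covariate (0.0615). In females Socs2 had a log2 difference of 0.92 ± 0.26 in the same direction, which was not called (limma adjusted p = 0.0872). The median log2 difference of the list was 0.07 in females and -0.03 in males. Socs3, an inhibitor of JAK kinases, had log2 differences of 0.72 ± 0.48 in females and -0.52 ± 0.49 in males, and Cish, a STAT5-induced inhibitor, of -0.14 and -0.37, and neither was called.

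By sex, 7 of these 15 were higher and 1 lower in control females (26.4% of all genes called), with a median log2 difference of 0.54 against -0.05 over all genes. Cish had 224 ± 35.3 (SD, n = 5) normalised reads among control females against 89.2 ± 42.3 (n = 6) among control males, a log2 difference of 1.44 ± 0.39 (SE, limma adjusted p = 0.009). The Cish call in controls was lost with age as a covariate (0.84, limma adjusted p = 0.258). In Bmal1 KO, 6 of 15 were higher in females (22.8% of all genes called), among them Cish at 1.67 ± 0.43 (0.00759) and Socs3 at 1.77 ± 0.51 (0.0149). The Socs3 call was lost without Bmal1 KO male 3 (limma adjusted p = 0.0788). The 1 STAT-induced gene called on the male side in controls, where Pim1 and Pim3 also lay, was Junb (-0.71 ± 0.15, limma adjusted p = 0.00112). With age as a covariate 6 of the 15 were called in controls, against 8 without it. Whether STATs have a part in the sex differences of Pim1 and Pim3 was not tested, and RNA levels do not measure STAT activity.

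Among 25 genes whose proteins are reported PIM substrates, Cdkn1a changed in both sexes. Cdkn1a encodes the cell cycle inhibitor p21, and its normalised reads rose in females from 481 ± 161 (SD, n = 5) up to 970 ± 193 (n = 5) and in males from 219 ± 36.9 (n = 6) to 583 ± 140 (n = 4). The log2 differences were 1.04 ± 0.19 (SE, limma adjusted p = 0.00461) and 1.39 ± 0.20 (0.000406), and the groups did not overlap in males. Cxcr4, a chemokine receptor, fell from 879 ± 259 to 472 ± 105 in females (log2 difference -0.88 ± 0.19, limma adjusted p = 0.0155) and from 6480 ± 886 to 3777 ± 1072 in males (-0.81 ± 0.19, 0.0378). Among females, Cxcr4 no longer passed when control female 4, control female 5 or Bmal1 KO female 2 was left out (0.0501 to 0.0534) and with the younger control females left out (0.187). In males it was lost without any 1 of control males 1 to 5 and Bmal1 KO males 1, 2 and 4 (0.0516 to 0.145). Cdkn1b, which encodes p27, fell in females from 1286 ± 185 to 937 ± 134 (-0.46 ± 0.10, limma adjusted p = 0.0193), which no longer passed when control female 1, control female 5 or any 1 of Bmal1 KO females 2 to 5 was left out (0.0505 to 0.0566).

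In all, 1 of the 25 substrates rose and 2 fell with Bmal1 KO in females, and 1 rose and 1 fell in males, with medians of 0.07 and -0.01, where 1.75% and 1.33% of all genes were called. By sex, 7 of 25 were higher and 3 lower in control females, against 26.4% of all genes called, and the 10 calls became 7 with age as a covariate and 7 with the replicate number as a block. Cxcr4 had the lower female level in controls, by a log2 difference of -2.92 ± 0.18 (SE, limma adjusted p = 2.68e-10), and Cdkn1a the higher one, by 1.09 ± 0.19 (0.000148).

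AKT and SGK kinases, which share substrates with PIM kinases, were read as a group of 10. By genotype limma called 1 of the 10 in females and 2 in males, where it called 1.75% and 1.33% of all genes. Akt2, the isoform of insulin signalling, fell in both sexes, from 4854 ± 526 (SD, n = 5) to 3605 ± 467 (n = 5) normalised reads in females (log2 difference -0.43 ± 0.09 SE, limma adjusted p = 0.0113) and from 3527 ± 319 (n = 6) to 2673 ± 165 (n = 4) in males (-0.40 ± 0.09, 0.0302). The female groups did not overlap, nor did the male groups. The male call of Akt2 was lost without any 1 of control males 2, 3 and 4 and Bmal1 KO males 1, 2 and 4 (limma adjusted p = 0.0537 to 0.118). The female call of Akt2 was lost with only the 2 groups in the fit (0.0568). Sgk1, a kinase induced by glucocorticoids and aldosterone, rose in males from 2603 ± 204 to 3210 ± 257 (0.30 ± 0.07, limma adjusted p = 0.0238), a call lost without control male 2 or 5 or Bmal1 KO male 1, 2 or 3 (0.0539 to 0.108). The list had a median log2 difference of -0.05 in females and -0.16 in males, and 3 of 10 were higher and 1 lower in females in each sex comparison (26.4% of all genes called in controls and 22.8% in Bmal1 KO). With age as a covariate 1 of the 4 calls in controls was left.

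The 8 chaperones and phosphatase subunits that act on the stability of PIM proteins held 1 call by genotype. Hspa8, a constitutive HSP70 chaperone, fell in males from 17460 ± 3317 (SD, n = 6) to 10300 ± 422 (n = 4) normalised reads (log2 difference -0.74 ± 0.18 SE, limma adjusted p = 0.0495). That call was lost in 16 of the 20 fits that leave out 1 library (0.0506 to 0.144), all but those without control female 2, Bmal1 KO females 1 and 5 and control male 6. In females limma called 0 of the 8, with 2 at an unadjusted p under 0.05, and edgeR and DESeq2 called 0. Of all genes, limma called 1.33% in males and 1.75% in females, where 11.7% were at an unadjusted p under 0.05. By sex, 5 of 8 were higher in control females and 4 of 8 in Bmal1 KO females, where 26.4% and 22.8% of all genes were called.

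Immediate early genes are switched on within minutes of a stimulus and, like the PIM genes, give short-lived messenger RNAs. Of 16, limma called 0 by genotype in females (1 at an unadjusted p under 0.05, 0 by edgeR, 0 by DESeq2) and 0 in males (4, 1 and 1). Over all genes limma called 1.75% in females and 1.33% in males, with 11.7% and 10.9% at an unadjusted p under 0.05. The median log2 difference of the 16 was 0.19 in females and -0.27 in males. By sex, 10 of 16 were lower in control females and 0 higher, with a median of -0.93 (26.4% of all genes called), and 5 of 16 were lower in Bmal1 KO females, with a median of -0.41 (22.8%). With age as a covariate 7 were called in controls. Ier2, an early response gene, read 2720 ± 736 (SD, n = 6) in control males, 1928 ± 326 (n = 4) in Bmal1 KO males, 1556 ± 397 (n = 5) in control females and 1517 ± 168 (n = 5) in Bmal1 KO females. Its log2 difference was -0.46 ± 0.20 (SE, limma adjusted p = 0.398) for genotype in males and -0.80 ± 0.19 (0.00337) for sex in controls.

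Glucocorticoid receptor targets, read because the adrenal is itself exposed to the steroid it makes, held 2 of 12 genes that rose with Bmal1 KO in females, and 2 that rose and 1 that fell in males. Limma called 1.75% of all genes in females and 1.33% in males. At an unadjusted p under 0.05 were 6 of the 12 in females and 8 in males, against 11.7% and 10.9% of all genes. In females the genes called were Cdkn1a and Nfkbia, the inhibitor of NF-kappaB, whose normalised reads rose from 2872 ± 916 (SD, n = 5) up to 4699 ± 477 (n = 5) (log2 difference 0.76 ± 0.15 SE, limma adjusted p = 0.00877). The Nfkbia call was lost with only the 2 groups in the fit (0.0619). In males Cdkn1a and Sgk1 were higher and Errfi1, a feedback inhibitor of the EGF receptor, fell from 2321 ± 749 (n = 6) to 1426 ± 222 (n = 4) (-0.66 ± 0.16, limma adjusted p = 0.0405). The Errfi1 call was lost without any 1 of Bmal1 KO females 1, 2, 3 and 5, control males 2 and 4 and Bmal1 KO males 1, 3 and 4 (0.0505 to 0.141). By sex 1 of 12 was higher and 4 lower in control females, and 2 higher and 4 lower in Bmal1 KO females, beside the same 26.4% and 22.8%.

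**Figure D4:**
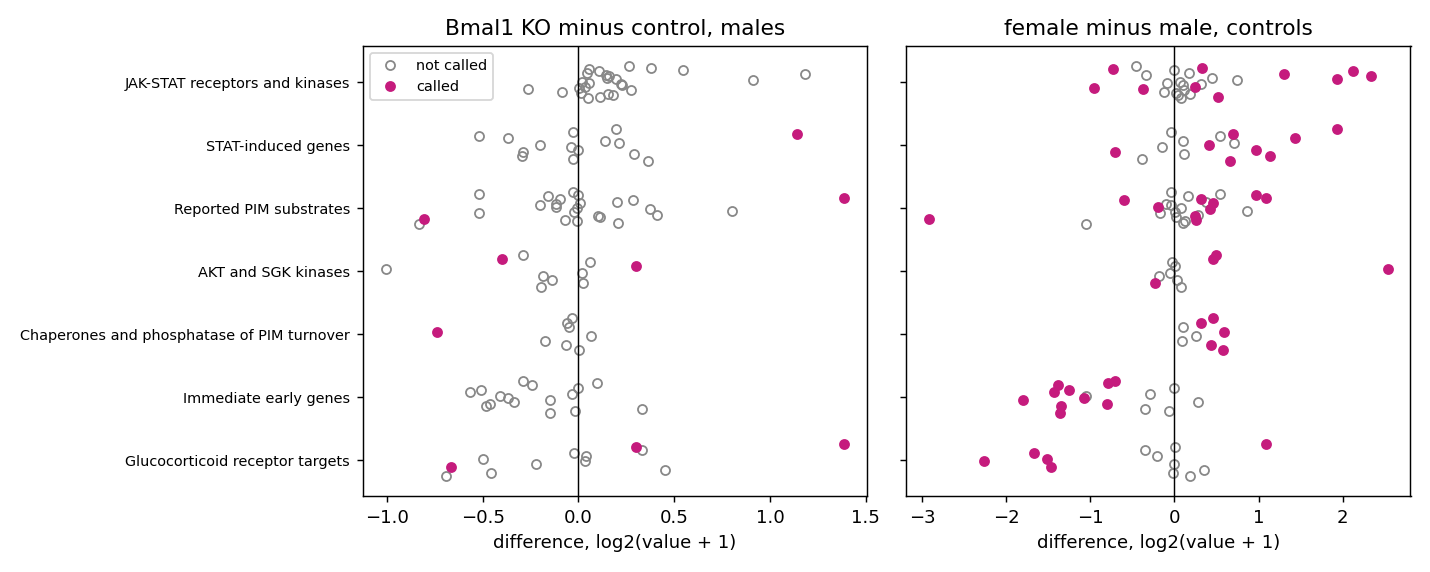
Log2 differences (x axis, log2 of value + 1) of every tested gene in 7 pathway lists (rows), for Bmal1 KO minus control in males (left) and female minus male in controls (right). Filled magenta points passed a limma adjusted p of 0.05 and hollow grey points did not. In the left panel few points are filled, where 1.33% of all genes tested were called. In the right panel, where 26.4% were called, the immediate early genes called, 10 of 16, all lie on the male side.

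The genes next to the members on their chromosomes were read in the same comparisons. Of 12 neighbours, the 2 nearest tested protein-coding genes on either side of each member, limma called 0 by genotype in females (2 at an unadjusted p under 0.05) and 0 in males (0 at that p), and edgeR and DESeq2 called 0 in both. Over all genes limma called 1.75% in females and 1.33% in males, with 11.7% and 10.9% under that unadjusted p. Creld2, 35503 bases from Pim3, had a log2 difference of -0.21 ± 0.13 (SE, limma adjusted p = 0.614) for genotype in males, and Alg12, 42868 bases away, -0.12 ± 0.10 (0.742). Ttll8 and Panx2 are the other two neighbours of Pim3. Around Pim1 these were Fgd2, Mtch1, Tmem217 and Tbc1d22b, and around Pim2 Otud5, Kcnd1, Slc35a2 and Pqbp1, with Slc35a2 only 596 bases away. By sex, 3 of the 12 were called in controls, a share near the 26.4% of all genes: Fgd2 at -0.72 (limma adjusted p = 0.0282), Pqbp1 at 0.26 (0.0406) and Alg12 at 0.26 (0.036).

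Pim1 and Pim3 varied together across libraries, and Pim2 did not follow them. Over all 20 libraries, Pearson's r of the log2 values was 0.684 between Pim1 and Pim3, and it was 0.742 over deviations from the group means, so libraries high in one were high in the other within groups too. For Pim1 with Pim2 these values were 0.033 and -0.307, and for Pim2 with Pim3 0.199 and -0.034. These are descriptions over 20 libraries that share depth, tissue and any shared handling.

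The genes most like each member were sought by Pearson's r over the 20 libraries among 13216 genes with a mean of at least 50 normalised reads. For Pim3 they were Pja1, a ubiquitin ligase (0.861), Ier2 (0.846), Kcnn1, a potassium channel (0.838), Errfi1 (0.837) and Lpin1, a phosphatidate phosphatase (0.835). Pja1 averaged 6517 ± 585 (SD, n = 6) normalised reads among control males, 4845 ± 150 (n = 4) among Bmal1 KO males, and 3926 ± 238 (n = 5) and 3852 ± 410 (n = 5) in control and Bmal1 KO females. Lpin1 averaged 1038 ± 170 and 705 ± 37.6 in males and 489 ± 46.4 and 506 ± 63.3 in females. Both thus had their highest group mean in control males, the likeness by which they were picked. In Bmal1 KO, males were above females for both, with female minus male log2 differences of -0.34 ± 0.08 (SE, limma adjusted p = 0.00317) for Pja1 and -0.49 ± 0.12 (0.00479) for Lpin1.

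For Pim1 the genes most alike over all libraries included Gm20400 (0.841), Gm26809 (0.831), Gm12840 (0.822) and the immediate early nuclear receptor gene Nr4a1 (0.816). For Pim2 they were Cd55 (0.830), Lrrc4b (0.797), Rims3 (0.791), Zfp182 (0.766) and 1500009L16Rik (0.760). Over deviations from the group means, which remove differences between groups, the order changed. Pim3 was then most like Ier2 (0.850), Ier3 (0.795), Ugt1a1 (0.794), Lars2 (0.774) and Szrd1 (0.773), of which Ugt1a1 is at or near 0 in males, where it ran from 0 to 8.24 normalised reads. Genes most like Pim1 included Zfand5 (0.869), Sik1, a kinase induced by cAMP (0.840), Gm12840 (0.824) and Gem (0.814). Pim2 was most like Lrrc4b (0.823), Gprasp1 (0.815), Stk26 (0.800), Tspan13 (0.794) and Rims3 (0.791). Gm12840 for Pim1, Lrrc4b and Rims3 for Pim2, and Ier2 for Pim3 were among the 5 most alike by both measures.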

How the data were processed

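Per the labels' protocols, a Direct-zol kit gave the RNA of whole adrenals and a TruSeq kit the libraries. Tools in the submitters' processing notes are featureCounts, Salmon, DESeq2, FastQC and MultiQC, with builds GRCm38 and mm10. Not given in the sources used here are their versions, the aligner and the strand setting. The authors deposited 1 normalised signal value per gene and library. Within each library 100% of positive values were whole multiples of 1 step (tolerance 0.001 of a read), so reads could be recovered. Because the values are not counts, limma-trend (limma 3.58.1, R 4.3.3) was run on log2(value + 1) for genes that reached a value of 1 in 4 or more of the 20 libraries, with each group's mean as a term. Calls required an adjusted p under 0.05 (Benjamini-Hochberg, over all genes tested). Differences on this scale understate changes of low genes. Reads limit precision through counting error only. The fit was tested on simulated data.

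Members and gene lists were chosen with earlier results of these data known. Named genes were the members, Jak2, Stat3, Stat5a, Stat5b, Socs3, Cish, up to 4 called genes of each pathway list per genotype comparison, the 2 nearest neighbours on either side, and the 5 genes most alike by each measure, of which not all are reported here. The values of Pim3 relative to Pim1, Arntl, Cry1 and Gm26885, and the markers named, are outside that rule and were chosen after their values were seen. Samples were grouped by the genotype and sex labels. Gene positions are from GENCODE M21 (GRCm38) and start windows from RefSeq. Alternatives were other pseudocounts, no filter, TMM scaling, edgeR 4.0.16 and DESeq2 1.42.0 on recovered reads, only the groups compared, the replicate number as a block, age as a covariate, and leaving out each library. Limiting control males or control females by age was added after the data were seen. Of the columns, 0 had no sample.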

Additional observations from a re-analysis of the deposited data

Results flagged for a closer look

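The Bmal1 KO minus control log2 difference of Pim3 was near 0 in females (-0.02) and -1.04 in males, so that the female value minus the male value was 1.0195. Every Bmal1 KO male lay below every control male, while the female groups overlapped. The flag came from a threshold on the adjusted p of this female minus male value. The family was chosen with the genotype results in view, so the flag is no support and no p is given.

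Single libraries stood apart from the rest of their group for 5 of 18 genes checked in 4 groups each, 72 checks in all, where chance flags about 1 in 20. Bmal1 KO female 4 read 748.6 normalised reads of Cish, and the next library 244.7. Control female 5 read 761.5 of Cdkn1a, next to 474.4. Bmal1 KO female 1 read 1172 of Cdkn1b, next to 900.7. Control male 3 read 2994 of Sgk1, next to 2603. Control male 5 read 3755 of Errfi1, next to 2395. Pim1, Pim2 and Pim3 had no such library in any of the 4 groups.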

How the results depend on the processing

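Pim3 in males kept its direction and size under every alternative run, from -1.09 without control male 6 to -0.98 without control male 5. Its sex difference in controls, which shares the control males with the genotype difference, stayed called throughout, from -1.06 to -0.88 on leaving out single libraries. The choice of the family drew on those same control males, so the lasting call is not free of that choice. In Bmal1 KO, where Pim3 was not called, that difference ran from -0.0373 to 0.063 and changed sign without Bmal1 KO female 2 (-0.0104), Bmal1 KO female 4 (-0.0096) or Bmal1 KO male 4 (-0.0373). Pim1 by sex in Bmal1 KO ran from -0.0026 to 0.2016, with the sign change without Bmal1 KO male 4. Pim1 by sex in controls ran from -0.5895 to -0.366 and Pim2 from -0.363 to -0.197.

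DESeq2 called 913 genes by genotype in females and 726 in males, against 467 and 354 by limma. With the control females no younger than the youngest Bmal1 KO female, 264 were called in females. In males, 214 were called with only the 2 groups in the fit and 200 with the control males no older than the oldest Bmal1 KO male. Leaving out single libraries gave 217 (without Bmal1 KO male 4) to 484 in males, with 229 without control male 2. By sex in controls, 3746 were called with age as a covariate, against 7023. The cause of these moves was not tested, beyond the fewer samples in some fits.

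The deviations of same-numbered libraries had r from -0.001 to 0.385 between female genotypes, over 0.1 in 3 of 5 pairs (mean -0.043 for other numbers), and 4 of 5 control females correlated best with their own number, a hint from the data and not the design. Between male genotypes r ran from -0.155 to -0.018. Not every pair passed 0.1, so the numbers are not taken to pair the libraries. Numbers also follow falling age labels in every group, so a shared number and a like rank in age cannot be told apart. With the replicate block, 368 genes were called in females, 303 in males, 6292 between the sexes in controls and 4991 between the sexes in Bmal1 KO, and Pim3 in males was -1.03. Cxcr4 lost its call with the block in females (limma adjusted p = 0.0573) and males (0.106), as did Akt2 (0.0731 and 0.172) and Sgk1 in males (0.12).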
